A study of Mus musculus with 16 samples.

Results

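Genes of amyloid precursor processing and of inherited Alzheimer risk were examined in the hippocampus as a set of 9: App, Aplp1, Bace1, Psen2, Sorl1, Picalm, Bin1, Clu and Abca7. They were taken by gene symbol, for their known roles and their expression in neurons or glia, from a table of 54532 genes. All 9 were among the 17555 genes that passed edgeR's filter on low counts over the 16 mice. The mice formed 4 groups of 4. WT and hTau.P301S mice drank vehicle water, and WT + NR and hTau.P301S + NR mice drank water with 6 mM nicotinamide riboside (NR), a precursor of NAD+. By the sample labels treatment ran for 3 months, from 12 to 15 months of age, whereas the study's text gives an earlier age in one place and a shorter treatment in another. In the hTau.P301S line the Thy1 promoter drives P301S-mutant human Tau, mainly in neurons. The labels name no other transgene, so the 9 genes are the animals' own copies in each group. The labels number the samples within a group and say nothing of litters or days, so p-values measure the spread between these samples.

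Amyloid-beta is cut from the amyloid precursor protein in 2 steps, by beta-secretase and then by gamma-secretase, while alpha-secretase cuts within the amyloid-beta stretch. Sorting and endocytic proteins set how much of the precursor meets each enzyme, and extracellular chaperones and lipid carriers bind the released peptide. Variants near several of these genes are associated with late-onset Alzheimer disease, a disorder in which amyloid plaques and tau tangles occur together. The hTau.P301S mouse models the tau lesion without a mutated amyloid precursor gene, and the comparison of its 4 groups asks whether transcripts of the amyloid side differ with mutant tau or with NR.

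The precursor gene App (ENSMUSG00000022892) lies on chromosome 16 of GRCm38, the assembly that mm10 denotes, from 84949685 to 85173766 on the minus strand. Its paralog Aplp1 (ENSMUSG00000006651), a neuronal member of the same family, lies on chromosome 7 from 30434982 to 30445535 on the minus strand. Bace1 (ENSMUSG00000032086), beta-secretase, lies on chromosome 9 from 45838580 to 45864399 on the plus strand and shares 975 exonic bases with Rnf214 on the opposite strand. Whether counting used strand is not given in the sources used here, so reads from that stretch could come from either gene. Psen2 (ENSMUSG00000010609), a catalytic subunit of gamma-secretase, lies on chromosome 1 from 180227004 to 180263438 on the minus strand.

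Sorl1 (ENSMUSG00000049313), a receptor that returns the precursor from endosomes, lies on chromosome 9 from 41964720 to 42124297 on the minus strand. Picalm (ENSMUSG00000039361), a clathrin assembly protein, lies on chromosome 7 from 90130213 to 90213465 on the plus strand. Bin1 (ENSMUSG00000024381), a membrane-bending protein of endocytosis with neuronal and oligodendrocyte isoforms, lies on chromosome 18 from 32377230 to 32435737 on the plus strand. Clu (ENSMUSG00000022037), the secreted chaperone clusterin that astrocytes make in quantity, lies on chromosome 14 from 65968483 to 65981547 on the plus strand. Abca7 (ENSMUSG00000035722), a lipid transporter, lies on chromosome 10 from 79996494 to 80015572 on the plus strand.

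Total counts per mouse ran from 16490261 to 21915362. hTau.P301S replicate 1 stood apart. In it 14.4% of counts were mitochondrial against 4.48% to 7.07% in the other 15 mice, 19467 genes were detected against at least 22199, and levels fell with gene length, with a slope of -0.51 log2 units per log2 unit of length against -0.11 to 0.12 in the other mice. Log2 fold changes that use this mouse are therefore given with and without it for the 9 genes and for the named genes of the wider pathway. Levels are CPM, counts scaled to each mouse's TMM-normalized total. Levels of different genes are compared only as TPM, counts divided by gene length and scaled to a common sum without TMM. Where mice are compared by TPM, the TMM factor is thus left out as well. That factor was 0.685 in hTau.P301S replicate 1 and 0.955 to 1.10 in the other mice. A gene was called differentially expressed at the study's limits, with p below 0.05 after adjustment and a log2 fold change past 0.5 in either direction.

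The label of hippocampal tissue was checked on Prox1 and C1ql2, genes of dentate granule cells, and Wfs1 and Fibcd1, genes of CA1 pyramidal cells, which were chosen after the data were seen. All 4 were detected in each mouse, at 20.9 to 160 CPM for Prox1, 10.5 to 242 for C1ql2, 67.4 to 288 for Wfs1 and 26.7 to 241 for Fibcd1. C1ql2 and Fibcd1 were both lowest in hTau.P301S + NR replicate 4. Neuronal markers (Rbfox3, Snap25, Syt1, Map2, Tubb3) summed to between 2348 and 5583 CPM over the 16 mice and astrocyte markers (Gfap, Aqp4 and 5 others) to between 3545 and 7965. Sums for oligodendrocyte precursors stood between 65.8 and 146 CPM. Markers of tissue that borders the hippocampus also varied. The choroid plexus sum ran from 18.9 to 9801 CPM, with Kcne2 at 0 in at least 1 mouse, and the striatal sum reached 1380 CPM in WT replicate 2 while the other 15 mice stood between 63.9 and 478, the latter in hTau.P301S + NR replicate 4. The part of these in the values below was not tested.

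Across the 15 mice without hTau.P301S replicate 1, the order of levels by TPM was Aplp1, Clu, App, Bin1, Sorl1, Bace1, Picalm, Psen2 and Abca7. Aplp1 stood at 1743 ± 155 TPM (SD, n = 15), Clu at 1203 ± 231 and App at 477 ± 89.4. Psen2 at 12.3 ± 1.28 TPM and Abca7 at 11.0 ± 3.23 were at the foot of the list. Ranges of neighbours did not overlap between Clu and App, Bin1 and Sorl1, or Picalm and Psen2, and overlapped for the other pairs. The table lists 2451 bases for Bin1 where its merged exons span 4117, and on that length Bin1 stood at 219 ± 29.0 TPM, still between App and Sorl1. The other 8 listed lengths equal the merged exons.

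In hTau.P301S relative to WT mice edgeR called none of the 9 genes, and Clu (higher) and Abca7 (lower) were the 2 with an unadjusted p under 0.05. By DESeq2, too, 0 of the 9 were called. Of all 16375 genes tested, edgeR called 0.00611%, and for 7.14% the unadjusted p was under 0.05. The log2 fold changes of the 9 had a median of 0.09 beside 0.02 over all genes, with 6 above 0 and 3 below.

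Clu was at 1152, 1021, 729 and 884 CPM in WT mice and at 2120, 1570, 1293 and 1193 CPM in hTau.P301S mice. Every hTau.P301S mouse lay above every WT mouse, with the highest value in replicate 1. The means were 947 ± 182 and 1544 ± 416 CPM (SD, n = 4), and the fitted log2 fold change was 0.71 with a standard error of 0.27 and an approximate 95% interval of 0.18 to 1.24 (unadjusted p = 0.0281, edgeR quasi-likelihood test, adjusted p = 0.598). Of all genes tested, 3.55% were likewise higher without overlap. Without replicate 1 the log2 fold change was 0.51 (unadjusted p = 0.0236, adjusted p = 0.385). By TPM the same mouse was the lowest of its group, at 773 against 1125 to 1644, and the ranges of hTau.P301S and WT mice then overlapped. The unadjusted p of Clu was not under 0.05 without WT replicate 3, WT replicate 4 or hTau.P301S replicate 2, nor with no filter.

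Aplp1 was the other member without overlap by CPM. WT mice had 1323, 1493, 1379 and 1277 CPM and hTau.P301S mice 2067, 1500, 1849 and 1792, so that the nearest mice of the groups, at 1493 and 1500, almost met. The log2 fold change was 0.40 with a standard error of 0.21 (unadjusted p = 0.0908, edgeR), and 0.32 without replicate 1 (unadjusted p = 0.0597). Replicate 1 was the highest of its group by CPM and the lowest by TPM, at 859 against 1789 to 1957.

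Abca7 differed in the opposite direction. It was at 30.3, 19.2, 20.6 and 29.4 CPM in WT mice and at 20.8, 16.8, 14.9 and 11.6 CPM in hTau.P301S mice, so that by CPM the groups overlapped through replicate 1. By TPM that mouse was the lowest, and the groups did not overlap, at 9.38 to 16.9 in WT and 3.86 to 8.95 in hTau.P301S mice. The share of all genes without overlap by TPM was not computed. The log2 fold change was -0.63 with a standard error of 0.25 and an interval of -1.12 to -0.13 (unadjusted p = 0.0345, adjusted p = 0.598, edgeR). Without replicate 1 it was -0.79 (unadjusted p = 0.00533, adjusted p = 0.3), and with a length trend removed from each mouse it was -0.44 (unadjusted p = 0.191). With 210 to 562 counts per mouse, counting error alone was 4.22% to 6.90% of the value.

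The choice of scaling mattered for these genes. With total counts in place of TMM, an alternative added after seeing the data, the median of all genes moved from 0.02 to -0.19 on the log2 scale. On that scale Clu stood at 0.44 (unadjusted p = 0.116), Aplp1 at 0.15 (unadjusted p = 0.508) and Abca7 at -0.89 (unadjusted p = 0.00434, edgeR). Their signs were the same under both scalings, while App, at 0.09 with TMM, stood at -0.07, and Picalm, at 0.07, stood at -0.12.

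**Figure D1:**
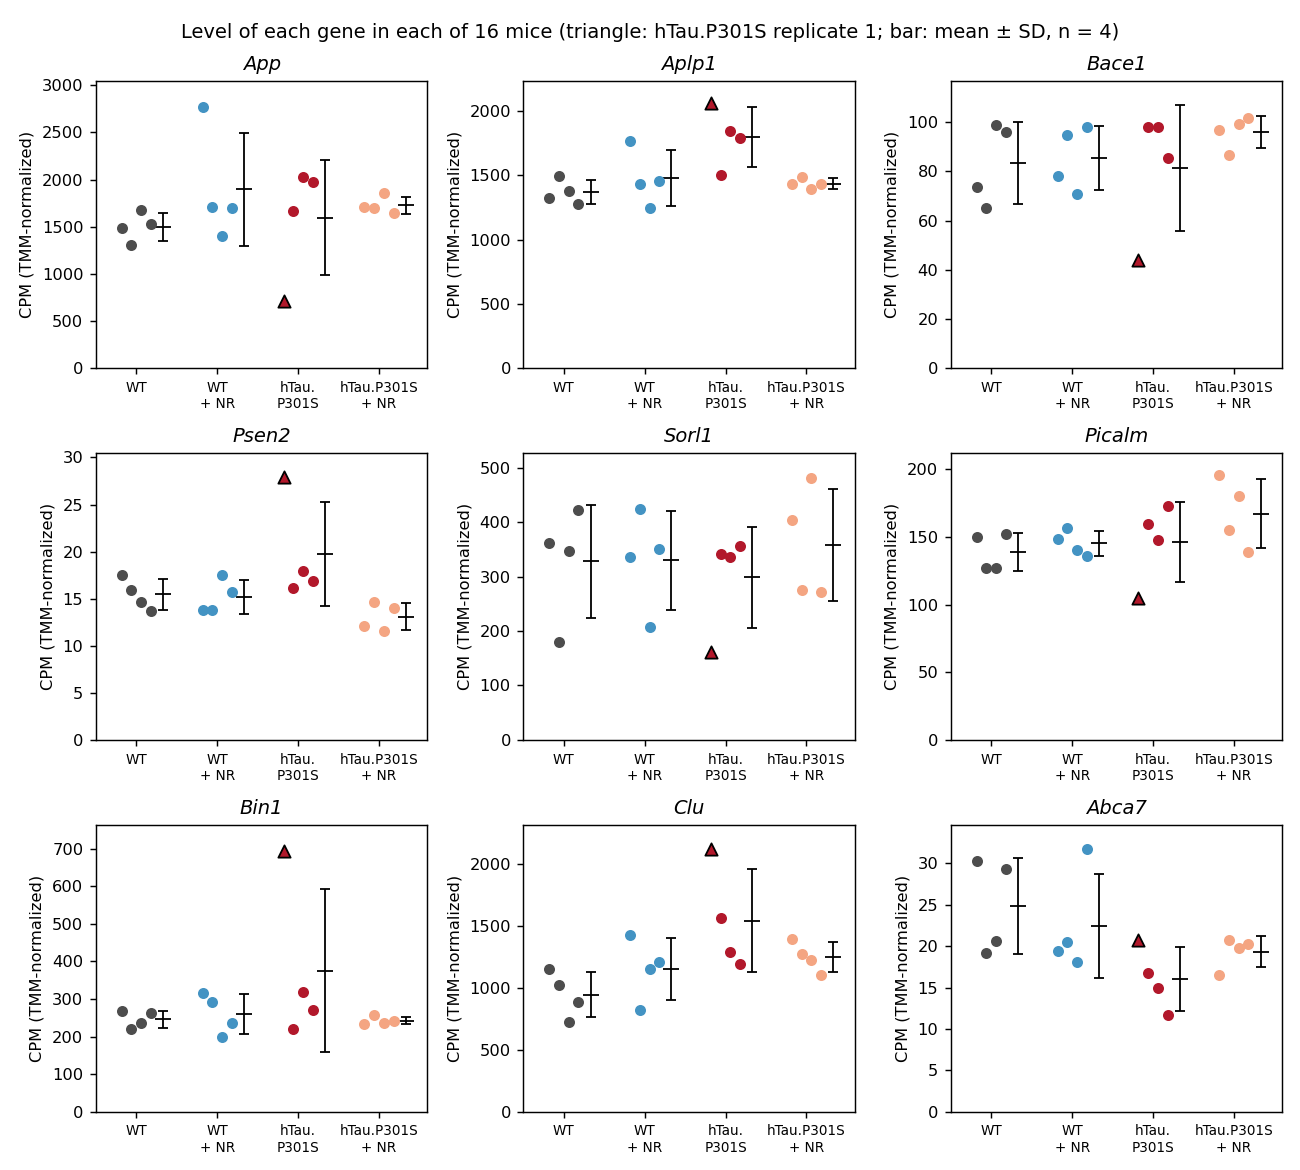
Level of each of the 9 genes in each mouse, in TMM-normalized CPM on axes that start at 0, with the mean and SD of each group of 4 as a bar beside the points and hTau.P301S replicate 1 drawn as a triangle. The triangle is the highest hTau.P301S mouse for Aplp1, Psen2, Bin1, Clu and Abca7 and the lowest for App, Bace1, Sorl1 and Picalm.

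App itself was at 1489, 1311, 1673 and 1529 CPM in WT mice and at 711, 1664, 2026 and 1976 CPM in hTau.P301S mice. Replicate 1 was far below, and the other mice of its group lay at the upper end of WT or above it. The log2 fold change was 0.09 with a standard error of 0.33 (unadjusted p = 0.802, edgeR), and 0.32 with a standard error of 0.15 without replicate 1 (unadjusted p = 0.0628).

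Bace1 had 73.8, 64.9, 98.9 and 95.9 CPM in WT mice and 43.9, 97.8, 98.1 and 85.3 CPM in hTau.P301S mice. Its log2 fold change was -0.04 with an interval of -0.58 to 0.50, and 0.16 without replicate 1. Psen2 was at 17.5, 15.97, 14.7 and 13.7 CPM in WT mice and at 27.95, 16.2, 17.9 and 16.8 CPM in hTau.P301S mice. Apart from replicate 1, the hTau.P301S mice were within or just above the WT range for both enzymes. For Psen2 the log2 fold change was 0.36 (unadjusted p = 0.16, edgeR) with that mouse and 0.13 (unadjusted p = 0.399) without it.

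Bin1 was the member whose difference rested most on replicate 1. WT mice had 267, 220, 235 and 262 CPM and hTau.P301S mice 694, 220, 318 and 270. The log2 fold change was 0.62 with a standard error of 0.36 (unadjusted p = 0.123, edgeR), and 0.12 with a standard error of 0.15 without that mouse. Sorl1 at -0.14 (interval -0.79 to 0.52) and Picalm at 0.07 (interval -0.31 to 0.46) showed no difference beyond the spread between mice, and the intervals leave changes of either sign possible. Without replicate 1 they stood at 0.07 and 0.20.

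Replicate 1 was low for the longer genes and high for the shorter genes of the set, with Abca7 apart. Relative to the mean of the other hTau.P301S mice it had 0.376 of the App level, 0.468 of Sorl1, 0.468 of Bace1 and 0.653 of Picalm, genes of 6348 to 15732 listed bases. It had 2.58 times the Bin1 level, 1.65 times Psen2, 1.57 times Clu and 1.21 times Aplp1, genes of 2451 to 4332 bases. Abca7, at 6752 bases, was at 1.44 times. For Abca7 and Psen2 the length trend of all genes in that mouse pointed the other way, to -0.57 and -0.15 on the log2 scale. Apoe, the main lipid carrier of the brain, was at 8720 CPM there against 1466 to 3114 in the other mice of the group, and Trem2, a lipid-sensing receptor of microglia, at 426 against 18.6 to 39.9 CPM.

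**Figure D2:**
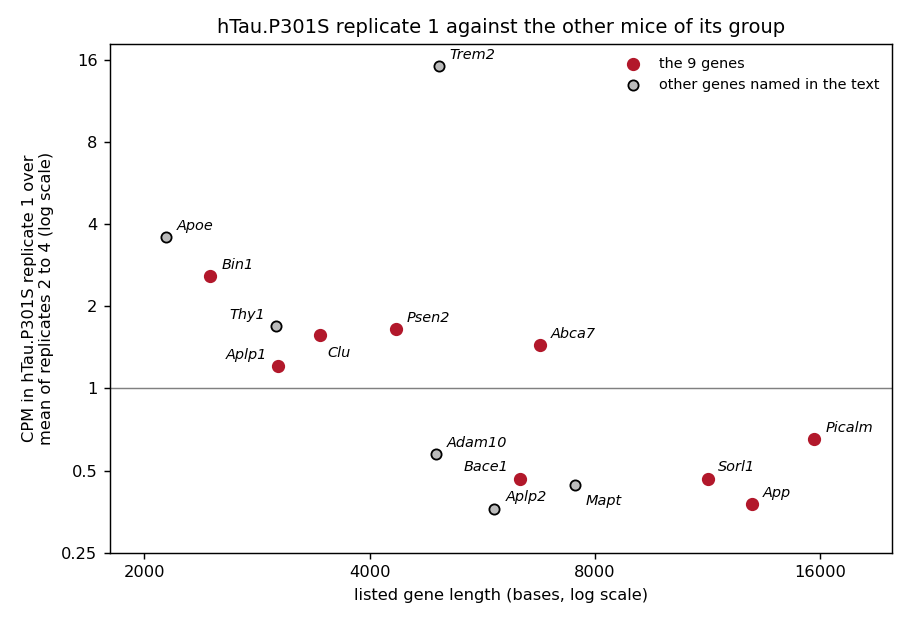
Level of each gene in hTau.P301S replicate 1 divided by the mean of replicates 2 to 4 of its group, on a log axis, against listed gene length in bases, also on a log axis, with the 9 genes in red and other named genes in grey. App, Sorl1, Bace1 and Picalm lie below 1, and Bin1, Psen2, Clu, Abca7 and Aplp1 above it.

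With NR in both genotypes, hTau.P301S + NR relative to WT + NR mice, none of the 9 genes was called by edgeR or DESeq2 and none had an unadjusted p under 0.05 by edgeR. Of 16671 genes tested edgeR called 0.054%, and 6.09% had an unadjusted p under 0.05. This comparison shares no mouse with the one without NR, nor does it use hTau.P301S replicate 1.

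Clu was at 1432, 826, 1156 and 1212 CPM in WT + NR mice and at 1399, 1277, 1230 and 1103 CPM in hTau.P301S + NR mice. The hTau.P301S + NR mice lay inside the range of the WT + NR mice, and the log2 fold change was 0.11 with an interval of -0.23 to 0.45. Abca7 had 19.4, 20.5, 18.1 and 31.7 CPM in WT + NR mice and 16.5, 20.7, 19.8 and 20.3 CPM in hTau.P301S + NR mice, and its log2 fold change was -0.21 with an interval of -0.58 to 0.15. WT + NR replicate 4 alone was high. The smallest unadjusted p of the 9 was that of Picalm, at 0.20 on the log2 scale (unadjusted p = 0.124), from 148, 157, 141 and 136 CPM in WT + NR and 196, 155, 180 and 139 CPM in hTau.P301S + NR mice. The other 6 had log2 fold changes between -0.22 and 0.17.

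Over all 16 mice, with NR as an additive term and thus the same mice fitted together, Abca7 and Clu had the smallest unadjusted p of the set for genotype. Abca7 had a log2 fold change of -0.42 with a standard error of 0.16 (unadjusted p = 0.0196, adjusted p = 0.563, edgeR) and Clu one of 0.41 with a standard error of 0.17 (unadjusted p = 0.0275, adjusted p = 0.601). Neither was called, in a fit that called 0.124% of 16929 genes and gave 7.56% an unadjusted p under 0.05, and DESeq2 called 0 of the 9. Without hTau.P301S replicate 1 the values were -0.48 (unadjusted p = 0.00954) and 0.29 (unadjusted p = 0.045). Picalm, at 0.14 in the whole fit, stood at 0.20 (unadjusted p = 0.0276) without that mouse. The other 6 lay between -0.02 and 0.25, with unadjusted p of 0.152 or more, and between -0.06 and 0.17 without that mouse, where Bin1 was at -0.00 and Psen2 at -0.06.

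**Figure D3:**
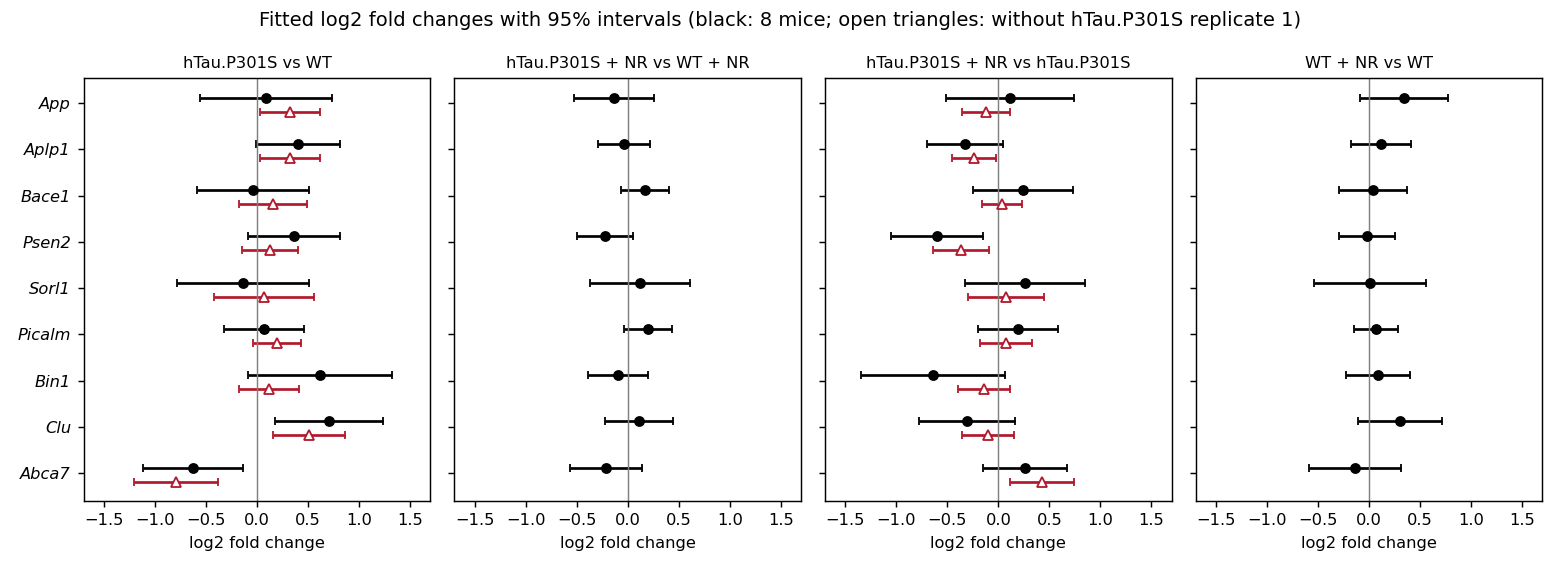
Fitted log2 fold change of each gene with its approximate 95% interval in the 4 pairwise comparisons, filled black for all 8 mice and open triangles without hTau.P301S replicate 1. The interval of Clu in hTau.P301S relative to WT mice lies above 0 and that of Abca7 below 0, and with NR in WT mice each of the 9 intervals crosses 0. The intervals are too narrow for so few mice. That of App in hTau.P301S relative to WT mice without replicate 1 lies above 0 at an unadjusted p of 0.0628 (edgeR quasi-likelihood test).

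With NR in hTau.P301S mice, that is hTau.P301S + NR against vehicle, neither edgeR nor DESeq2 called any of the 9 genes. Psen2 was lower at an unadjusted p under 0.05 by edgeR, and Psen2 and Aplp1 were lower without overlap by CPM. Of 16386 genes tested edgeR called 0.0061% and gave 12.9% an unadjusted p under 0.05, 7.01% of the genes being lower, and 5.54% were lower without overlap. This comparison uses the same hTau.P301S mice as the one against WT, so a high or low value in them enters both with opposite signs.

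Psen2 was at 27.95, 16.2, 17.9 and 16.8 CPM in hTau.P301S mice and at 12.1, 14.6, 11.6 and 14.0 CPM in hTau.P301S + NR mice. By CPM each NR mouse lay below each mouse on vehicle. By TPM hTau.P301S replicate 1 was the lowest of its group, at 8.09 against 12.6 to 13.4. The NR mice stood at 9.61 to 12.4 TPM, so that the groups then overlapped. The means were 19.7 ± 5.54 and 13.1 ± 1.45 CPM (SD, n = 4), and the fitted log2 fold change was -0.60 with a standard error of 0.23 and an interval of -1.04 to -0.16 (unadjusted p = 0.0265, adjusted p = 0.367, edgeR). Without replicate 1 it was -0.37 (unadjusted p = 0.0245, adjusted p = 0.215), and with total counts in place of TMM -0.35 (unadjusted p = 0.0829), where the median of all genes moved from -0.03 to 0.16. The counts behind these values were 207 to 355 per mouse over the 16 mice, with a counting error of 5.31% to 6.95%.

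Aplp1 also did not overlap by CPM, at 1430, 1491, 1396 and 1431 CPM in hTau.P301S + NR mice against 1500 and above in hTau.P301S mice. By TPM Aplp1 overlapped, at 1662 to 1814 in hTau.P301S + NR and 859 to 1957 in hTau.P301S mice. Its log2 fold change was -0.33 with a standard error of 0.19 (unadjusted p = 0.119, edgeR), and -0.24 (unadjusted p = 0.0606) without replicate 1. The 4 NR mice had the narrowest spread of Aplp1 among the groups, a CV of 2.73%, and lay within the pooled range of both WT groups.

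Bin1 had a log2 fold change of -0.64 (unadjusted p = 0.105) that was -0.14 without replicate 1, from 234, 257, 236 and 242 CPM in hTau.P301S + NR mice. Clu was at -0.31 (unadjusted p = 0.233), and at -0.10 (unadjusted p = 0.466) without that mouse. App was at 1704, 1695, 1861 and 1649 CPM in hTau.P301S + NR mice, and its log2 fold change went from 0.11 to -0.12 when replicate 1 was left out. Abca7 stood at 0.26 (unadjusted p = 0.244) and at 0.43 (unadjusted p = 0.0226, edgeR) without that mouse. Bace1 had 96.7, 86.7, 99.0 and 102 CPM with NR and Sorl1 405, 276, 481 and 271, with log2 fold changes of 0.24 and 0.26 and intervals that crossed 0. Without replicate 1 these were 0.04 and 0.07, so the values above rested mostly on that mouse. Picalm went likewise from 0.19 to 0.07.

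With NR in WT mice neither edgeR nor DESeq2 called any of the 9 genes, and none had an unadjusted p under 0.05. Neither tool called any of the 16714 genes tested, which is 0%, and 0.79% had an unadjusted p under 0.05 by edgeR. App had the lowest p of the set, a log2 fold change of 0.34 with a standard error of 0.22 (unadjusted p = 0.151). It was at 2770, 1710, 1403 and 1701 CPM in WT + NR mice, so replicate 1 of that group was far above the others. Clu was at 0.30 (interval -0.11 to 0.70), and the other 7 genes lay between -0.14 and 0.12.

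The difference between the NR effects in the genotypes was tested as an interaction over 16 mice. None of the 9 genes was called by edgeR, nor was any of 17555 genes, which is 0%, while 7.92% had an unadjusted p under 0.05, and DESeq2 called 0 of the 9. Psen2 had an interaction of -0.56 on the log2 scale with a standard error of 0.26 (unadjusted p = 0.0452, adjusted p = 0.558, edgeR). Aplp1 at -0.44 (unadjusted p = 0.0625), Clu at -0.59 (unadjusted p = 0.0761) and Bin1 at -0.71 (unadjusted p = 0.0925) had the next smallest p. All 4 are genes that were highest by CPM in hTau.P301S replicate 1. Without that mouse Psen2 stood at -0.34 (unadjusted p = 0.0906), Aplp1 at -0.36 (unadjusted p = 0.0641), Clu at -0.39 (unadjusted p = 0.155) and Bin1 at -0.22 (unadjusted p = 0.308), and none of the 9 had an unadjusted p under 0.05. App went from -0.22 to -0.46 and Abca7 from 0.42 to 0.58. Bace1, Picalm and Sorl1, at 0.21, 0.13 and 0.26 with the mouse, were at 0.01, 0.01 and 0.06 without it.

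Ratios within a mouse cancel the scaling. A pair of such ratios is given as log2 ratios of counts. Each of their 8 comparisons was tested by two-sided exact permutation, with p-values adjusted over the 12 comparisons that were planned. The test cannot give a p under 0.02857 with 4 mice against 4. Bace1 to Adam10, beta-secretase to the main alpha-secretase of neurons, was -0.17, -0.15, -0.29 and -0.12 in WT + NR mice and -0.06, -0.04, 0.00 and 0.22 in hTau.P301S + NR mice. The groups did not overlap, with a difference of 0.21 (exact permutation p = 0.02857, the smallest possible, and 0.171 adjusted). Without NR the difference between genotypes was 0.12 (exact permutation p = 0.371), and 0.20 without replicate 1.

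App to Aplp1 was -1.54, 0.15, 0.13 and 0.14 in hTau.P301S mice and 0.25, 0.19, 0.41 and 0.20 in hTau.P301S + NR mice. The NR mice were above every vehicle mouse, and the difference was 0.54 (exact permutation p = 0.02857, adjusted p = 0.171), of which 0.12 was left without replicate 1. With the length trend removed it was -0.02. The other 5 comparisons had exact permutation p of 0.429 or more.

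Marker sums of cell types moved with Clu and Abca7, and with other members as well. On the log2 scale Bace1 had a Pearson r with the neuronal sum of 0.88 over 16 and 0.76 over 15 mice. Its r was 0.90 within the 8 WT mice and -0.16 within the 7 hTau.P301S mice without replicate 1. With the oligodendrocyte precursor sum Bace1 had 0.86 and 0.70, and 0.84 and 0.25 within the genotypes. Sorl1 had 0.84 and 0.74 with the neuronal sum, and 0.78 and 0.65 within the genotypes. With the striatal sum Sorl1 had -0.69 and -0.86, and -0.90 and -0.75 within the genotypes. In bulk tissue fewer cells of a type and less RNA per cell cannot be told apart. The endothelial sum (Cldn5, Pecam1, Flt1) was 93.5 to 196 CPM with a median of 131 in WT mice, 93.9 to 155 with a median of 131 in WT + NR, 56.2 to 98.6 with a median of 72.2 in hTau.P301S and 116 to 121 with a median of 118 in hTau.P301S + NR mice. It was thus low in the group where Abca7 was low. No endothelial marker was called in any comparison, and none of the 3 was at 0 in any mouse.

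Abca7 and the endothelial sum had a Pearson r of 0.77 and a Spearman rho of 0.64 over 16 mice on the log2 scale, and of 0.84 and 0.81 over the 15 without hTau.P301S replicate 1. Leaving out the 2 mice with the most extreme sums of the 15 gave r = 0.69. Within the 8 WT mice with or without NR r was 0.67 and rho 0.71, with r = 0.54 after leaving out the 2 most extreme. Within the 7 remaining hTau.P301S mice r was 0.93 and rho 0.64, and r fell to 0.56 in the same way, so that the high r rests on those 2 mice. With the oligodendrocyte precursor sum Abca7 had an r of 0.78 and a rho of 0.86 within the 8 WT mice, and an r of -0.04 over the 15. These are descriptions from 72 gene by marker list pairs, whose points share libraries and scaling. The part of endothelial RNA in the level of Abca7 was not tested.

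The microglial sum (Cx3cr1, P2ry12, Csf1r, Tmem119, Aif1, C1qa) was 241 to 306 CPM in WT mice, 260 to 494 in WT + NR, 285 to 1649 in hTau.P301S and 326 to 438 in hTau.P301S + NR mice, with the top value in replicate 1 and 449 the highest of hTau.P301S mice without it. All 6 markers were detected. Clu had an r of 0.80 with the microglial sum over 16 mice and 0.70 over 15, 0.76 within the 8 WT mice and 0.12 within the 7 hTau.P301S mice. Leaving out the 2 mice with the most extreme sums gave 0.68 for the 15 and 0.42 for the 8 WT mice. The astrocyte sum was 3545 to 5193 CPM in WT and 4516 to 6471 in hTau.P301S mice, and Clu had an r of 0.30 with it over 16 and 0.56 over 15 mice. The oligodendrocyte sum was 2751 to 7946 CPM in WT and 7323 to 10060 in hTau.P301S mice. With it Clu had an r of 0.74 over 16 and over 15 mice, 0.77 within the 8 WT mice and 0.18 within the 7 hTau.P301S mice, values close to those for the microglial sum. Without the 2 most extreme mice r was 0.55 for the 15 and 0.45 for the 8 WT mice. Bin1, which oligodendrocytes also express, had an r of 0.38 over 16 and 0.28 over 15 mice with the oligodendrocyte sum. With the microglial sum Bin1 had 0.87 over 16 and 0.39 over 15 mice. The part of these cells in the levels of Clu and Bin1 was not tested.

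**Figure D4:**
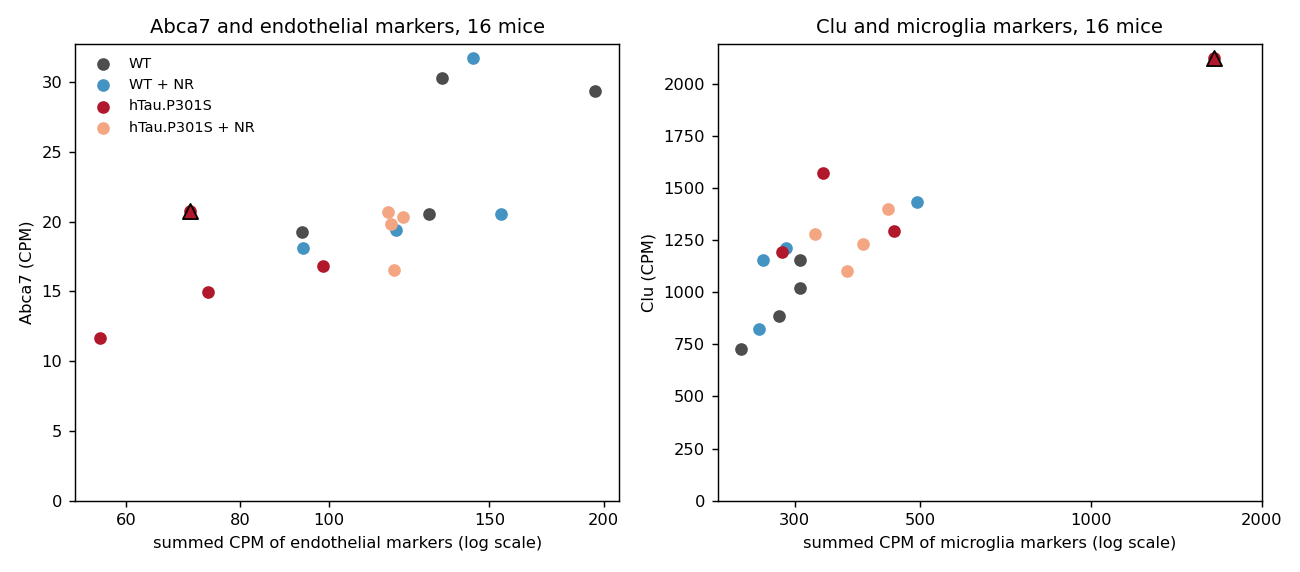
Left, CPM of Abca7 against the summed CPM of 3 endothelial markers, and right, CPM of Clu against the summed CPM of 6 microglial markers, 1 point per mouse coloured by group, with the marker axis on a log scale and hTau.P301S replicate 1 outlined as a triangle. The hTau.P301S mice have endothelial sums of 56.2 to 98.6 CPM and Abca7 levels of 11.6 to 20.8 CPM, at the lower left of the left panel.

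The genes whose log2 CPM followed each member most closely differed with replicate 1 in or out for most members. Over 16 mice App was most like Fyn (r = 0.93) and over 15 mice most like Prnp (r = 0.91), the prion protein gene. Bin1 went from Dus1l (0.96) to Dlg4 (0.87), a scaffold of excitatory synapses, and Rbfox3 (0.86), the neuronal marker NeuN. Psen2 went from Pgk1 (0.96) to Ufc1 (0.91).

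For Sorl1, Bace1, Picalm, Aplp1 and Clu a leading gene was the same in the whole set and in the 15. Sorl1 was most like Scn8a (0.98) and Kcnq3 (0.97) over 16 mice and like Creg2 (0.98) and Scn8a (0.97) over 15. Bace1 had Mtor (0.95 and 0.90), Picalm had Zhx1 (0.95 and 0.93), Aplp1 had Cdipt (0.95 and 0.93), and Clu had Tlr2 (0.95 and 0.93), a microglial receptor, with Naaa (0.95) at the top over 15 mice. Abca7 went from Loxl3 (0.85) to Kdr (0.94), the endothelial receptor for VEGF, which is not in the marker list above. These are correlations of log2 CPM chosen as the highest among all genes and carry no test.

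Pairs within the set also depended on that mouse. App and Aplp1 had an r of -0.11 over 16 mice and 0.74 over 15. App and Bin1 had -0.51 and 0.70. Over 15 mice Bace1 and Sorl1 had 0.67, Picalm and Sorl1 0.62, Bin1 and Aplp1 0.63 and Aplp1 and Abca7 -0.60.

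Of the wider pathway, 16 genes of the precursor family, secretases and adaptors, 11 of clearance and lipid carriage, 8 of sorting and retromer and 22 other Alzheimer risk genes were followed, 57 in all, with 20 of the 22 risk genes past the filter in hTau.P301S relative to WT mice. edgeR called none of the 57 in any of the 6 comparisons. In hTau.P301S relative to WT mice, those past an unadjusted p of 0.05 were 0 of 16, 1 lower of 11, 0 of 8 and 3 higher of 20 tested, with median log2 fold changes of 0.08, -0.34, 0.15 and 0.17 beside 0.02 over all genes. Together these were 4 of 55, or 7.27%, beside the 7.14% of all genes. Without replicate 1 they were 10 of 55, each higher, or 18.2% beside 11.8% of all genes, and none was called.

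Among the risk genes Inpp5d, a lipid phosphatase of microglia, had 19.1 ± 2.60 CPM in hTau.P301S and 11.7 ± 1.56 in WT mice (SD, n = 4). Its log2 fold change was 0.71 without overlap by CPM (unadjusted p = 0.00561, adjusted p = 0.598, edgeR), and 0.62 without replicate 1. By TPM its groups overlapped, at 3.65 to 9.13 in hTau.P301S and 4.59 to 6.35 in WT mice. Grn, the gene of the lysosomal protein progranulin, had 87.7 ± 17.1 and 55.0 ± 3.14 CPM. Its log2 fold change was 0.68 without overlap by CPM (unadjusted p = 0.00548, edgeR), and 0.52 without replicate 1. Trem2 had 426, 25.9, 39.9 and 18.6 CPM in hTau.P301S and 16.8, 22.6, 13.6 and 17.3 CPM in WT mice, and its log2 fold change of 2.88 (unadjusted p = 0.0185) came with an interval of 0.92 to 4.84. Without replicate 1 it was 0.67 (unadjusted p = 0.0355). Apoe stood at 0.90 (unadjusted p = 0.127), and at 0.16 (unadjusted p = 0.613) without that mouse.

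With NR in hTau.P301S mice those past an unadjusted p of 0.05 were 1 higher and 1 lower of 16, 2 higher of 11, 1 higher of 8 and 0 of 21 tested. These 5 of 56 are 8.93%, below the 12.9% of all genes, and without replicate 1 they were 12 of 56, or 21.4% beside 18%. Sorcs1, a sorting receptor of the Sorl1 family, had 29.8 ± 9.60 CPM in hTau.P301S + NR and 15.3 ± 4.15 in hTau.P301S mice, a log2 fold change of 0.96 with a standard error of 0.28 (unadjusted p = 0.00862, adjusted p = 0.367, edgeR), and 0.82 without replicate 1. Adam17, an alpha-secretase, stood at 0.56 (unadjusted p = 0.027, edgeR) and Apbb1, an adaptor that binds the precursor's tail, at -0.67 (unadjusted p = 0.038, edgeR). Each was without overlap by CPM. Of all genes 5.54% were lower without overlap, and the share that was higher is not given here. By TPM Apbb1 overlapped, at 265 to 338 in hTau.P301S + NR and 248 to 382 in hTau.P301S mice. Without replicate 1 Adam17 and Apbb1 were at 0.42 and -0.35. Apoe and Trem2 were at -0.86 and -2.22, and at -0.11 and -0.01 without that mouse, so that little of either difference was left.

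In hTau.P301S + NR relative to WT + NR mice 1 of 56 tested, of the clearance list, was higher at an unadjusted p under 0.05, which is 1.79% beside 6.09% of all genes. With NR in WT mice 1 of 55, of the same list, was lower, which is 1.82% beside 0.79%. Over 16 mice genotype gave 1 higher of 16, 1 lower of 11, 1 higher of 8 and 2 higher of 21 tested, in all 8.93% beside 7.56%, and 12.5% beside 13.3% without hTau.P301S replicate 1. The interaction gave 1 higher of 8 and 2 lower of 22, in all 5.26% of 57 beside 7.92%, and 5.26% beside 7.5% without that mouse.

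Thy1, the gene that lends the transgene its promoter, was at 475, 462, 634 and 541 CPM in WT mice and at 1640, 804, 1102 and 993 CPM in hTau.P301S mice, and the log2 fold change over 16 mice was 0.79 (unadjusted p = 0.000181, adjusted p = 0.1, edgeR). By CPM each mouse labelled hTau.P301S, with NR or without, was above each mouse labelled WT. By TPM hTau.P301S replicate 1, at 686, was below WT replicate 3, at 784. The share of all genes separated in this way over 16 mice is not given here. Mapt, the mouse's own tau gene, stood at -0.09 over 16 mice (unadjusted p = 0.568), and its counts do not measure the human transgene.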

How the data were processed

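Hippocampal RNA of 16 mice was analysed, 4 per group, with groups and replicate numbers taken from the sample labels. The authors prepared libraries with a NEBNext Ultra RNA kit, checked and trimmed reads (FastQC and Trim Galore, per the submitters' processing notes, versions not given in the sources used here), aligned them to mm10 with STAR, used RSEM for counting and deposited raw gene counts, whole numbers with no normalization. The deposited table also lists a gene length, another value whose definition is not stated. It equals the merged exon length of GENCODE M21 for 98.0% of 54495 genes. Total counts per mouse ran from 16490261 to 21915362, and counting error covers sampling of reads only.

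Each pairwise comparison was fitted on its 8 mice with edgeR 4.0.16 in R 4.3.3 (filterByExpr, TMM, quasi-likelihood test), and genotype and the interaction over 16 mice. All genes were fitted and p-values adjusted over all by Benjamini-Hochberg. Standard errors come from the log2 fold change and its test statistic. CPM used TMM factors and TPM did not. Log2 CPM used a prior count of 2, and ratios were tested by exact permutation with scipy 1.17.1. The scripts were tested on simulated counts with 200 changed genes. For hTau.P301S relative to WT, edgeR recovered 14.5% of those changed by 1 log2 unit and 95% of those changed by 2, over 15116 and 15117 genes. With a length trend put into hTau.P301S replicate 1, edgeR recovered 2% and 90%. After that trend was removed it recovered 19.5% and 94.5%.

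The members and lists were chosen with earlier results of these data known. Named were the 9 members in every mouse, Apoe, Trem2, Thy1 and Mapt, genes of the 4 pathway lists that were called or had an unadjusted p under 0.05 without overlap, the most alike genes of each member, and Adam10 for a ratio. Alternatives were DESeq2 1.42.0, its size factors, no filter, all 4 groups in one fit, the replicate number as a block, a length trend removed (lowess, span 0.5), each mouse left out and, added after seeing the data, total counts in place of TMM and 2 fits over 4 groups, without hTau.P301S replicate 1 or with the trend removed, and the wider lists without that mouse. Isoforms and splicing were not analysed here. A further planned ratio and 2 listed genes are not reported here, and the p-values of that ratio's 4 comparisons stayed in the adjustment over 12.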

Additional observations from a re-analysis of the deposited data

Results flagged for a closer look

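In 44 groups of 4 mice, each of the 9 genes and the 2 ratios in the 4 groups, the highest and the lowest mouse were examined for a gap to the next mouse larger than Dixon's 95% limit, set on the gap's share of the group's whole range. Chance gives about 1 in 20 groups, and 4 were found.

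hTau.P301S replicate 1 was the mouse in 3 of the 4. By CPM it had the highest Psen2 level of its group, 27.95, and the lowest Sorl1 level, 160.9. By TPM this mouse had the lowest Psen2 level of its group, 8.09. It also had the lowest log2 ratio of App to Aplp1, -1.54. The same mouse had the highest mitochondrial share and the fewest genes detected.

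WT + NR replicate 1 had the highest log2 ratio of App to Aplp1 of its group, 0.65, while the other 3 mice stood between 0.17 and 0.25.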

How the results depend on the processing

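None of the 9 genes was called in any comparison under any alternative, by edgeR or DESeq2. In hTau.P301S relative to WT mice the unadjusted p of Abca7 was not under 0.05 without WT replicate 1 or 4 or hTau.P301S replicate 3 or 4. With NR in hTau.P301S mice that of Psen2 was not under 0.05 without hTau.P301S + NR replicate 1 or 3. Psen2 and Abca7, with 207 to 562 counts per mouse, carry the most counting error. In simulations of hTau.P301S relative to WT, 4 mice per group leave most effects under a log2 fold change of 1 uncalled. There edgeR recovered 14.5% at 1, and 2% with a length trend put into hTau.P301S replicate 1. Where a value below changed sign or size, the cause was not tested.

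The number of genes called out of all tested depended on the method. For hTau.P301S relative to WT mice it was 1, and it was 115 with DESeq2, 5 with no filter, 36 with all 4 groups in one fit, 9 with the length trend removed, 53 in the 4-group fit without hTau.P301S replicate 1 and 63 in the 4-group fit with the trend removed. For hTau.P301S + NR relative to WT + NR mice it was 9, and 58 with DESeq2 and 15 with no filter. For genotype over 16 mice it was 21, and 94 with DESeq2 and 39 with the trend removed. With total counts in place of TMM, the split of that last comparison was 18 higher and 10 lower in place of 17 and 4. It was 42 and 52 with DESeq2, and 25 and 29 without hTau.P301S replicate 1. For NR in hTau.P301S mice it was 1, and 283 with DESeq2, 2 with all 4 groups in one fit, 2 in that fit without hTau.P301S replicate 1 and 0 with total counts. The interaction went from 0 to 18 with DESeq2. In simulations of hTau.P301S relative to WT mice 29.8% of DESeq2's calls were wrong at a log2 fold change of 1.

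Leaving out each mouse in turn gave 1 to 14 genes for hTau.P301S relative to WT, with 14 without hTau.P301S replicate 1 and 2 without WT replicate 3. It gave 8 to 31 for hTau.P301S + NR relative to WT + NR, with 31 without WT + NR replicate 3, and 18 to 54 for genotype over 16 mice, with 54 without hTau.P301S replicate 1 and 44 without WT + NR replicate 1. For NR in hTau.P301S mice it gave 0 to 33, with 33 without hTau.P301S replicate 1, and 0 without hTau.P301S replicates 2, 3 or 4 or hTau.P301S + NR replicates 1, 2 or 4. The interaction ran from 0 to 1, with 1 without hTau.P301S replicate 3.

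The labels do not say whether equal replicate numbers pair mice of different groups. Deviations from the group means correlated between -0.537 and 0.417 over 24 pairs of same-numbered mice of different groups, with 8 over 0.1. Their median was -0.026, beside -0.021 for differently numbered pairs, and 5 of 16 mice correlated best with a mouse of their own number. With the replicate number as a block, 3 genes were called in hTau.P301S relative to WT, 4 in hTau.P301S + NR relative to WT + NR and 0 for NR in hTau.P301S mice. App stood at -0.01 in hTau.P301S relative to WT, and the NR effect on Psen2 in hTau.P301S mice at -0.57 (unadjusted p = 0.0757, edgeR). The block changed no call of the 9 genes.

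Of 432 values of the 9 genes under settings other than leaving out a mouse 26 changed sign, none of them called. In hTau.P301S relative to WT, Bace1 went to 0.04 and Sorl1 to 0.10 with the length trend removed, to 0.05 and 0.10 with the trend removed in the 4-group fit, and to 0.16 and 0.07 in that fit without hTau.P301S replicate 1. With total counts App went to -0.07 and Picalm to -0.12. In hTau.P301S + NR relative to WT + NR, Aplp1 went to 0.00 with the trend removed. Over 16 mice App went to 0.01 and Sorl1 to 0.06 with the trend removed, and Psen2 to -0.08 and Bace1 to -0.02 with total counts. With NR in hTau.P301S mice, App went to -0.24, Picalm to -0.33 and Sorl1 to -0.09 with the trend removed, in the pairwise and the 4-group fit alike, and App to -0.12 in the 4-group fit without hTau.P301S replicate 1. With NR in WT mice, Sorl1 went to -0.00 with the trend removed in either fit and to -0.02 with total counts. In the interaction Picalm went to -0.33 and Sorl1 to -0.08 with the trend removed.

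Of 576 values with a mouse left out 39 changed sign, as ranges for these genes. In hTau.P301S relative to WT App ran from -0.05 to 0.32, Bace1 from -0.16 to 0.16, Picalm from -0.03 to 0.20 and Sorl1 from -0.35 to 0.07. Between the NR groups App ran from -0.25 to 0.12, Clu from -0.02 to 0.25, Bin1 from -0.21 to 0.02, Sorl1 from -0.05 to 0.26 and Aplp1 from -0.11 to 0.07. Over 16 mice App ran from -0.09 to 0.10, Psen2 from -0.06 to 0.13, Bin1 from -0.00 to 0.33 and Sorl1 from -0.10 to 0.09. The NR effect on App in hTau.P301S mice ran from -0.12 to 0.25, and with NR in WT mice Psen2 ran from -0.10 to 0.05, Bace1 from -0.07 to 0.13, Bin1 from -0.04 to 0.20, Sorl1 from -0.20 to 0.18 and Aplp1 from -0.00 to 0.19. In the interaction App ran from -0.46 to 0.02.

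Among the ratios, with NR in hTau.P301S mice, Bace1 to Adam10 went to -0.07 and App to Aplp1 to -0.02 with the length trend removed. With a mouse left out, when 3 against 4 mice cannot give an exact permutation p under 0.05, the difference in Bace1 to Adam10 between hTau.P301S + NR and WT + NR ran from 0.15 to 0.24 and that in App to Aplp1 with NR in hTau.P301S mice from 0.12 to 0.69. App to Aplp1 ran from -0.55 to 0.01 in hTau.P301S relative to WT, App to Aplp1 from -0.11 to 0.05 between the NR groups, and Bace1 to Adam10 from -0.05 to 0.09 with NR in hTau.P301S and from -0.16 to 0.02 with NR in WT mice.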
